A study of Mus musculus with 2 samples.

Results

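Metallothioneins and ferritins were followed through 4 genes, Mt1, Mt2, Fth1 and Ftl1, which were taken by symbol from the 31053 genes counted in single dermal cells of mouse skin. The cells came from PdgfraDreER-tdTomato mice on the C57BL/6 strain, 8 weeks old, in which a tamoxifen-inducible Dre recombinase driven from the Pdgfra gene turns on the red reporter tdTomato in cells of the fibroblast lineage. Live dermal cells that were negative for the leukocyte antigen CD45 and positive for tdTomato were sorted from the skin of untreated mice (UT) and of mice given imiquimod (IMQ), a Toll-like receptor agonist that induces psoriasis-like inflammation, over 7 days. The epidermis had been removed with dispase. Both groups carried the same reporter and had received tamoxifen, only cells in which recombination had taken place were sampled, and each group was 1 library, with the number of mice behind it not given in the sources used here. No value below has a replicate, no test was run, and every interval is an exact 95% interval that covers counting error only. In a sum over barcodes, fewer cells with a transcript and less transcript per cell cannot be told apart, so values per barcode are given beside the sums.

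Metallothioneins are small cysteine-rich proteins that bind zinc and copper and buffer oxidants. Their genes are switched on by zinc through the transcription factor MTF1, which binds metal response elements in their promoters, and also by glucocorticoids and by inflammatory signals that act through STAT3. Ferritin is the hollow shell in which cells store iron. It is built from heavy chains (Fth1), which oxidise ferrous iron, and light chains (Ftl1), which help to form the mineral core, in proportions that differ between tissues, and its synthesis is held back at low iron by iron regulatory proteins that bind a hairpin at the start of both mRNAs.

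The promoters of the metallothionein pair are shown because they held matches to metal response elements, and the ferritin promoters held none. Mt1 and Mt2 lie next to each other on the plus strand of chromosome 8 in the GRCm38 build, with Mt2 at chr8:94172664-94173568 and Mt1 at chr8:94179082-94180327 in the GENCODE M21 annotation, 5513 bases apart. Mt1 is ENSMUSG00000031765 and Mt2 is ENSMUSG00000031762, and an annotated gene on the other strand, Gm45774, overlaps Mt2. The 250 bases before each RefSeq start site and the 30 bases from it on are printed 5′ to 3′ on the plus strand (GRCm38.p6). All printed Mt2 bases lie before the GENCODE M21 start of Mt2, while the RefSeq start of Mt1 lies within its GENCODE gene. Where transcription starts in these cells was not tested, so positions and matches hold for these windows only. Capitals mark matches to the core of the metal response element, TGCACNC or TGCGCNC, on either strand.
Mt2, chr8:94172368-94172617: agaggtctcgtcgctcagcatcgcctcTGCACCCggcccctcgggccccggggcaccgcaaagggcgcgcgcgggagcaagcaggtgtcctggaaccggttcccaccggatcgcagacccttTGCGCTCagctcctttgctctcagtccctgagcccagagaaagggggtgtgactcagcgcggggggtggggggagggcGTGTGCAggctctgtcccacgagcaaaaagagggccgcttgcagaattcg
Mt2, chr8:94172618-94172647: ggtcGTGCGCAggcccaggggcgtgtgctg
Mt1, chr8:94178839-94179088: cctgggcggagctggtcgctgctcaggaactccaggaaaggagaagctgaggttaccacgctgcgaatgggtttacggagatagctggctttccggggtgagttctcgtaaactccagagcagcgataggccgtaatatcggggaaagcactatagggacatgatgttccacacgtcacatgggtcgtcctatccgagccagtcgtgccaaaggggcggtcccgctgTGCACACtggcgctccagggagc
Mt1, chr8:94179089-94179118: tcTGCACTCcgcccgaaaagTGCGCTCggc

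The Mt2 window of 300 bases held 4 matches and the Mt1 window held 3. Among 32851 RefSeq promoter windows of the same length, 25.7% held at least 1 match, 1.97% at least 3 and 0.517% at least 4. Neither the Ftl1 window nor either of the Fth1 windows held a match. A match to the antioxidant response element core, TGACNNNGC, was seen once in the Mt2 window, 79 to 71 bases before the RefSeq start. The other windows of these genes held none, and 12.4% of all windows held at least 1. The Mt2 match overlapped none of the metal response element matches.

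The ferritin genes are shown through the hairpin loop they share. Fth1 (ENSMUSG00000024661) lies at chr19:9980598-9985098 on the plus strand and Ftl1 (ENSMUSG00000050708) at chr7:45457944-45459884 on the minus strand. A search of the 5′ untranslated regions of GENCODE M21 transcripts for the iron-responsive element, a CAGTGN loop closed by 5 paired bases with an unpaired C before them, found 1 match in each ferritin transcript and none in Mt1 or Mt2. Of 20757 genes with a 5′ untranslated region of at least 20 bases, 31 held such a match (0.149%). The 30 bases around each are printed 5′ to 3′ as DNA, with the loop in capitals.
Fth1, transcript bases 87 to 116: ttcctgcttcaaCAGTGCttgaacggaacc
Ftl1, transcript bases 78 to 107: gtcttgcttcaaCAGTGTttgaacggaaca

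The 2 loops differ only in their last base, the N of the motif. These elements act on translation, so the counts below bear on the mRNAs and not on ferritin protein. Of the 251 stretches of 50 bases in the last 300 bases of Ftl1, 65.7% were shared with other annotated genes and 45.8% with its copy Ftl1-ps1, which the files count separately. Mt1, Mt2 and Fth1 shared none. Ftl1 also overlaps Gm22133 on the same strand and Gm10252 on the other strand, so its counts are the least certain of the 4. Ftl1-ps1 had 98 UMIs in UT and 11 in IMQ, and adding them to Ftl1 moved its log2 ratio only from -0.21 to -0.24.

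A transcript captured at its 3′ end is counted once by a unique molecular identifier (UMI). Barcodes with 200 to 5000 genes and at most 5% of UMIs from mitochondrial (mt-) genes were kept, 1045 of 1415 in UT (1104798 UMIs, median 741) and 571 of 5047 in IMQ (460947 UMIs, median 659). With a limit of 10% these numbers were 1301 and 1043. The libraries shared 1 barcode sequence, which was not among the kept barcodes of either. Gm42418, a transcript that overlaps a ribosomal RNA repeat, took 1.38% of kept UMIs in UT and 14.6% in IMQ, and the median of 8129 genes with at least 10 UMIs lay at a log2 ratio of IMQ over UT of -0.61 in CPM, a gene's UMIs divided by those of the library's kept barcodes, times 1000000. The sorted population was checked against 7 fibroblast markers, which were detected in both libraries and summed to 81828 CPM in UT and 122602 CPM in IMQ. Keratinocyte markers summed to 1675 and 17.4 CPM, with Krt5, Krt1, Krt15 and Dsp at 0 in IMQ, and myeloid markers to 1660 and 291 CPM, with Fcer1g at 0 in IMQ. Their part in the results over all barcodes was not tested, and values within fibroblast-like clusters are given for the 4 genes and the gene lists.

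Over all kept barcodes the CPM of both metallothioneins was higher in IMQ and that of Fth1 lower, while the direction of Ftl1 depended on the scaling. Mt1 had 1874 UMIs in UT, or 1696 CPM (1620 to 1775), and 1249 UMIs in IMQ, or 2710 CPM (2561 to 2864). Its log2 ratio of IMQ over UT was 0.68 (0.57 to 0.78). Mt2 differed more, with 355 UMIs or 321 CPM (289 to 357) in UT and 487 UMIs or 1057 CPM (965 to 1155) in IMQ, a log2 ratio of 1.72 (1.52 to 1.92). The intervals of the libraries did not overlap for either gene.

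Fth1 went the other way in CPM, with 8282 UMIs or 7496 CPM (7336 to 7660) in UT and 2090 UMIs or 4534 CPM (4342 to 4733) in IMQ, a log2 ratio of -0.73 (-0.80 to -0.66). Ftl1 had 4082 UMIs or 3695 CPM (3582 to 3810) in UT and 1469 UMIs or 3187 CPM (3026 to 3354) in IMQ, a log2 ratio of -0.21 (-0.30 to -0.13) that turned positive under every other scaling tried, at 0.27 with TMM factors, 0.26 with median-of-ratios factors and 0.05 with mitochondrial, ribosomal protein, Gm42418 and AY036118 UMIs left out of the totals. Under those scalings Mt1 lay at 0.94 to 1.16, Mt2 at 1.98 to 2.20 and Fth1 at -0.47 to -0.24. Relative to the median gene the CPM ratios were 1.28 for Mt1, 2.32 for Mt2, -0.12 for Fth1 and 0.39 for Ftl1. In CPM Mt2 was the 1 member at least 2-fold higher in IMQ, a change shown by 3.73% of all 8129 genes. No member was at least 2-fold lower, against 32.0% of genes. With the 10% limit the background shares were 3.33% and 32.3%, and the member counts were the same. In CPM the Mt2 call ended in fibroblast-like clusters (0.55), without cluster 4, the cluster that held 68.4% of its IMQ UMIs (0.58), and with every cell weighted equally (0.65). With TMM or median-of-ratios factors Mt2 stayed just past 2-fold in fibroblast-like clusters, at 1.01 with each.

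**Figure D1:**
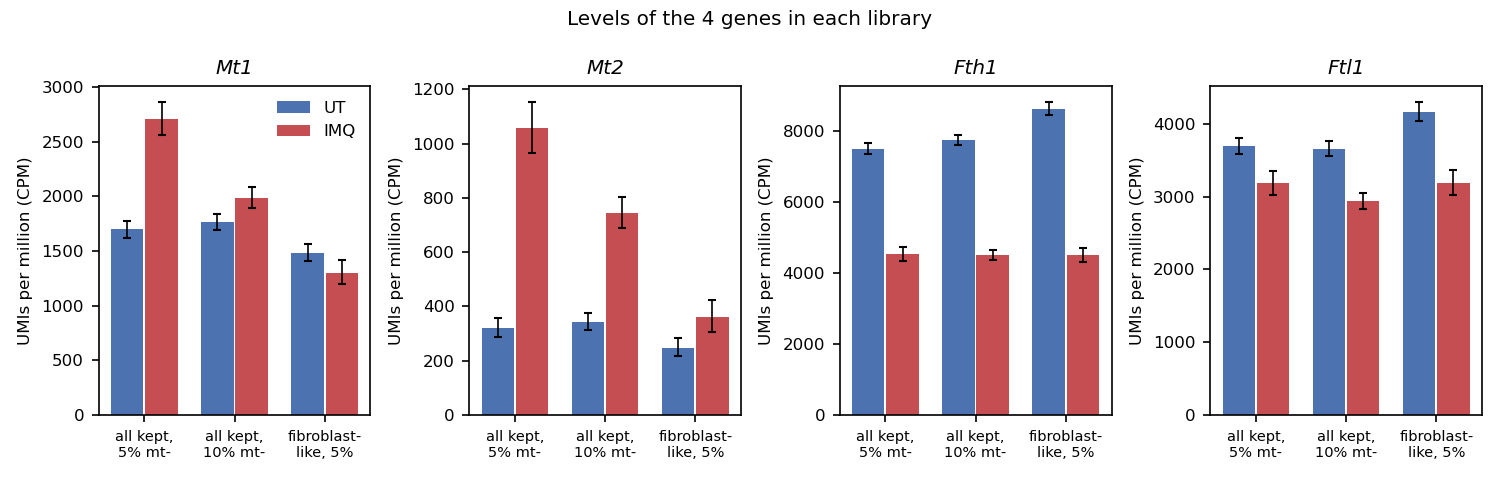
CPM of each gene in UT (blue) and IMQ (red), over all kept barcodes with at most 5% or 10% mitochondrial UMIs and over fibroblast-like clusters. Error bars are exact 95% Poisson intervals. Mt1 is higher in IMQ over all kept barcodes and lower in fibroblast-like clusters (1482 against 1301 CPM, a difference that turns to higher under each of the other scalings), while Fth1 is lower in IMQ in all 3 sets and Ftl1 is lower in CPM but higher with TMM factors.

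The size of the metallothionein difference depended on which barcodes were summed. With the 10% mitochondrial limit the Mt1 log2 ratio was 0.17 (0.08 to 0.26) and that of Mt2 was 1.12 (0.94 to 1.30), since in the 256 UT and 472 IMQ barcodes between 5% and 10% Mt1 was lower in IMQ (-0.91, -1.10 to -0.72). Requiring 500 genes per barcode left 37 IMQ barcodes and gave 2.30 for Mt1 and 3.56 for Mt2. Among those 37, the 5 barcodes with the most Mt1 UMIs held 690 of 755 Mt1 and 331 of 353 Mt2 UMIs. The ferritins moved less: Fth1 lay at -0.78 with the 10% limit and -0.39 with 500 genes, and Ftl1 at -0.31 and -0.01.

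A handful of barcodes held most of the metallothionein UMIs of the IMQ library. It took 48 barcodes in UT and 5 in IMQ to reach 50% of the Mt1 UMIs, and for Mt2 these numbers were 17 and 3. The single highest IMQ barcode carried 252 Mt1 and 157 Mt2 UMIs among its 7713, which was 20.2% of the Mt1 and 32.2% of the Mt2 UMIs of that library. For Fth1, by contrast, 223 barcodes in UT and 106 in IMQ were needed to reach 50% of its UMIs, and for Ftl1 216 and 111. Ferritin transcripts were spread over the cells, and a large part of the metallothionein transcripts was concentrated in few of them. Mt1 was still seen in 50.7% of UT and 50.4% of IMQ kept barcodes. In the fibroblast-like clusters described below, its top barcode held 2.61% of its UMIs in UT and 2.23% in IMQ.

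**Figure D2:**
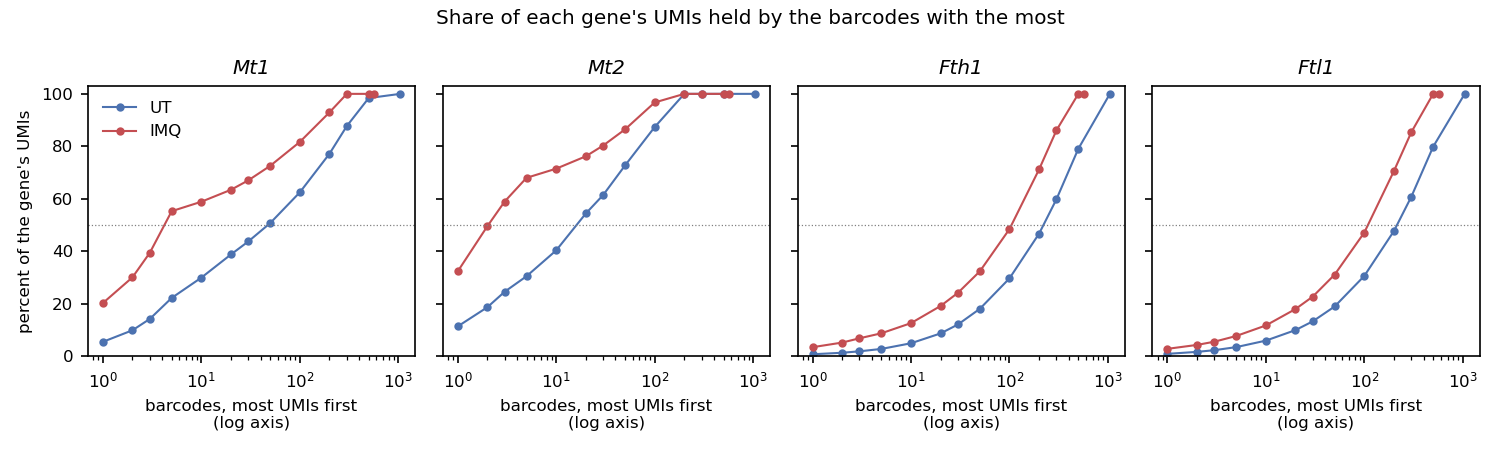
Percent of a gene's UMIs (vertical axis) held by the barcodes with the most of them (horizontal axis, number of barcodes, log axis), for UT (blue) and IMQ (red). The first 5 IMQ barcodes hold 55.2% of Mt1 and 68.0% of Mt2 UMIs, and 8.66% of Fth1 and 7.62% of Ftl1 UMIs. The dotted line marks 50%.

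These barcodes fell in 1 cluster. The kept barcodes were clustered after integration of both libraries with the 4 genes left out of the variable genes, which gave 3 fibroblast-like clusters (986 UT and 554 IMQ barcodes), a myeloid-like cluster (25 and 10) and cluster 4, which was left unnamed (34 and 7). Cluster 4 was led by Malat1, a nuclear long noncoding RNA, and by keratinocyte genes that came mainly from 2 UT barcodes, and its median barcode carried 3733 UMIs. It held 1.23% of IMQ barcodes, 8.57% of their UMIs, 55.7% of their Mt1 and 68.4% of their Mt2 UMIs. In UT it held 3.25% of barcodes, 16.5% of UMIs, 28.1% of Mt1 and 36.6% of Mt2 UMIs.

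A look at the single barcodes of cluster 4, chosen after its values were seen, showed both extremes of Mt1. The 7 IMQ barcodes carried 252, 123, 117, 116, 82, 6 and 0 Mt1 UMIs. In UT 5 of the 34 carried 101, 83, 81, 80 and 70, the next 2 carried 27 each, and 12 had none although the median barcode there was sequenced to 3567 UMIs. Each library thus held 5 barcodes with at least 70 Mt1 UMIs, all in cluster 4, and the highest count in any other barcode was 35 in UT and 12 in IMQ. None of these 10 barcodes was among the doublets by score.

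The 5 UT barcodes had 2028 to 3648 UMIs each and Mt1 levels of 24493 to 39448 CPM, and the 5 IMQ barcodes had 5248 to 10782 UMIs and 10851 to 32672 CPM. As a share of each barcode's own UMIs the ranges overlapped, and summed over the 5 they came to 28726 CPM in UT and 18780 CPM in IMQ. The barcodes were picked by a raw count of at least 70 Mt1 UMIs, which demands a higher CPM of the shallower UT barcodes. The order of the Mt1 sums is thus partly set by that choice. Mt2 in the same barcodes came to 7476 CPM in UT and 9009 CPM in IMQ, again with overlapping ranges (2451 to 10965 and 2326 to 20355 CPM). Ftl1 came to 761 CPM (274 to 1510 in single barcodes) and 2368 CPM (1231 to 3710), and Fth1 to 2769 CPM (1050 to 4530) and 4436 CPM (1582 to 9576), so the ferritin sums were higher in the IMQ barcodes with ranges that overlapped. The 5 barcodes made up 1.31% of all kept UMIs in UT and 7.97% in IMQ. The summed UMIs of the 7 fibroblast markers in them ran from 4 to 343 in UT and from 4 to 761 in IMQ.

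Without cluster 4, left out after its values were seen, the CPM of Mt1 was slightly lower in IMQ. Mt1 came to 1459 CPM in UT and 1312 CPM in IMQ, a log2 ratio of -0.15 (-0.30 to -0.01), and Mt2 to 244 and 365 CPM, a log2 ratio of 0.58 (0.28 to 0.89). In fibroblast-like clusters alone Mt1 had 1342 UMIs or 1482 CPM in UT and 538 UMIs or 1301 CPM in IMQ (-0.19, -0.33 to -0.04), a ratio that turned to 0.27 with TMM or median-of-ratios factors and to 0.09 with mitochondrial, ribosomal protein, Gm42418 and AY036118 UMIs left out. Mt2 had 224 UMIs or 247 CPM and 150 UMIs or 363 CPM (0.55, 0.24 to 0.86), and 0.83 to 1.01 under those scalings. Fth1 in those clusters had 8623 CPM in UT and 4500 CPM in IMQ (-0.94, -1.01 to -0.87), and -0.66 to -0.48 under them. Ftl1 had 4170 and 3187 CPM (-0.39, -0.48 to -0.30), and -0.11 to 0.07. Among fibroblast-like cells the direction of Mt1 and Ftl1 thus hung on the scaling, while Mt2 was higher and Fth1 lower in IMQ under all 4 scalings.

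Deep barcodes stood apart from the rest in CPM. In the 4 bins of barcodes below 1500 UMIs the Mt1 log2 ratio in CPM lay between -0.48 and -0.16, with intervals that spanned 0 in 3 of them. That of Mt2 lay between 0.30 and 0.95, and its intervals also spanned 0 in 3 of the 4. From 1500 UMIs upward, in 144 UT and 26 IMQ barcodes, the Mt1 and Mt2 ratios were 2.40 (2.26 to 2.55) and 3.40 (3.14 to 3.66). The 5 IMQ barcodes with at least 70 Mt1 UMIs lay in this bin. They held 690 of its 740 Mt1 and 331 of its 348 Mt2 UMIs in IMQ. The 5 such UT barcodes held 415 of 812 and 108 of 192. Fth1 was lower in IMQ in all 5 bins, at -1.23 to -0.79 below 1500 UMIs and -0.18 (-0.35 to -0.01) above. Ftl1 was lower in the 4 shallower bins (-0.53 to -0.37) and at 0.20 (-0.01 to 0.40) in the deepest.

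Between the clusters the genes kept different orders. Fth1 was highest in fibroblast-like cluster 3, which was led by Coch, Fmod and Igfbp4 and carried fewer fibroblast marker UMIs than clusters 1 and 2, with 14524 CPM (13928 to 15140) in UT and 8727 CPM (7677 to 9881) in IMQ. Cluster 2 followed with 9550 and 4948 CPM and cluster 1 with 6533 and 3629 CPM, and the intervals of the 3 clusters did not overlap in either library. Ftl1 had the same order, with 5776, 4278 and 3660 CPM in UT and 5362, 3395 and 2756 CPM in IMQ. Mt1 had the opposite order of clusters in UT, 1119 CPM in cluster 3, 1421 in cluster 2 and 1612 in cluster 1, with intervals of neighbours that overlapped and those of clusters 1 and 3 apart. In IMQ that order was not kept, with Mt1 at 1443 CPM in cluster 2, 1238 in cluster 1 and 981 in cluster 3 and all 3 intervals overlapping. Fth1 was lower in IMQ in each of the 3 clusters, by log2 ratios in CPM of -0.85, -0.95 and -0.73 in clusters 1, 2 and 3 with overlapping intervals. Ftl1 lay at -0.41 and -0.33 in clusters 1 and 2 and at -0.11 (-0.36 to 0.14) in cluster 3, in CPM. TMM factors, which add 0.46 to the ratios of fibroblast-like barcodes, turn all 3. Leaving mitochondrial, ribosomal protein, Gm42418 and AY036118 UMIs out of the totals adds 0.28, which turns only that of cluster 3.

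In the myeloid-like cluster, which was led by Cd74 and class II histocompatibility genes, ferritins were higher in IMQ, Fth1 with 2996 CPM (2237 to 3928) against 6053 CPM (4463 to 8025) and Ftl1 with 2247 CPM (1598 to 3071) against 6305 CPM (4680 to 8313). These values rest on 25 and 10 barcodes. In cluster 4 the ferritins also lay higher in IMQ, with Fth1 at 2315 and 4582 CPM and Ftl1 at 1468 and 2557 CPM.

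**Figure D3:**
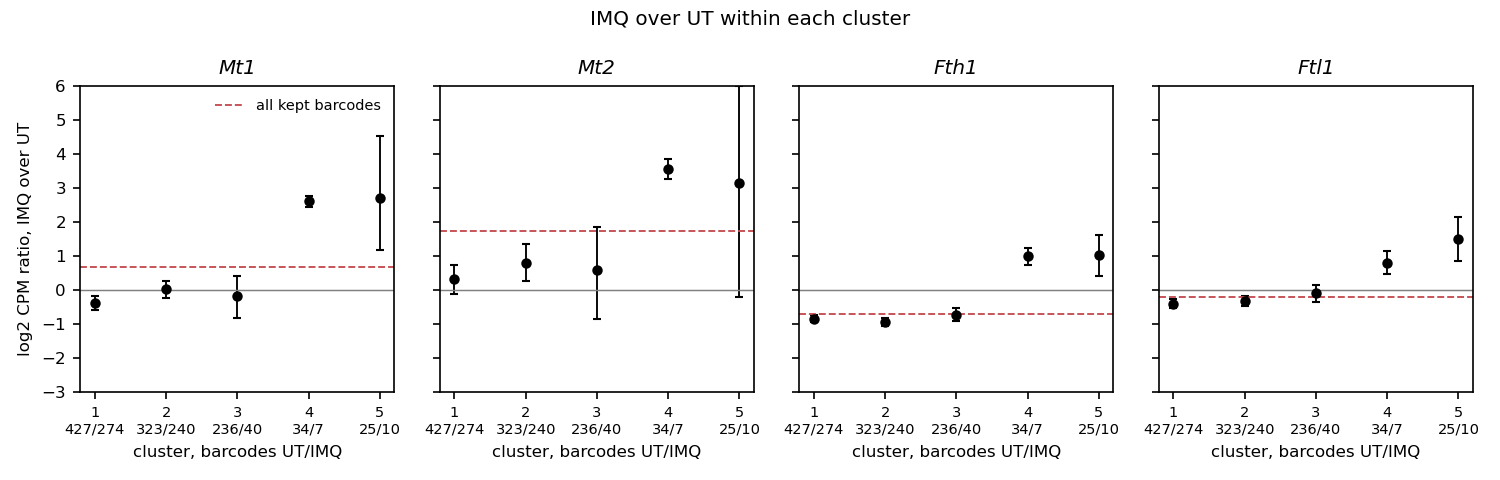
Log2 ratio of CPM, IMQ over UT, of each gene within each of 5 clusters, with 95% counting intervals (the lowest axis value is -3 and the highest 6, and the Mt2 interval in cluster 5 runs past it). Clusters 1 to 3 are fibroblast-like, cluster 4 is unnamed and cluster 5 is myeloid-like, with UT and IMQ barcode numbers under each. The dashed line is the ratio over all kept barcodes. In CPM, Mt1 lies between -0.38 and 0.02 in clusters 1 to 3 and at 2.60 in cluster 4. TMM factors add 0.46 in fibroblast-like barcodes, which leaves the Mt1 and Ftl1 ratios of clusters 1 to 3 above 0. Leaving mitochondrial, ribosomal protein, Gm42418 and AY036118 UMIs out of the totals adds 0.28. That leaves Mt1 in cluster 1 and Ftl1 in clusters 1 and 2 below 0.

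Ratios between the members of a pair need no library total, and both were lower in IMQ. In UT the kept barcodes held 2.03 Fth1 UMIs for each Ftl1 UMI (1.95 to 2.11), and in IMQ 1.42 (1.33 to 1.52), a log2 difference of -0.51 (-0.62 to -0.40). Mt1 over Mt2 was 5.28 (4.71 to 5.93) in UT and 2.56 (2.31 to 2.85) in IMQ, a log2 difference of -1.04 (-1.27 to -0.81). The intervals of the 2 libraries were apart for each pair.

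The ferritin pair shifted throughout the library. Its ratio was lower in IMQ in all 5 depth bins, at 1.78 to 2.27 in UT and 1.31 to 1.80 in IMQ, with every interval of the difference below 0. It was lower in each of the 6 bins of mitochondrial share, from at most 2% to above 10%, and in fibroblast-like clusters 1, 2 and 3 (1.78 against 1.32, 2.23 against 1.46 and 2.51 against 1.63). Cluster 4 was the exception, with 1.58 in UT and 1.79 in IMQ and a difference of 0.18 (-0.24 to 0.62). In the myeloid-like cluster the ratio was 1.33 and 0.96, with an interval of the difference that spanned 0 (-1.36 to 0.41). Among the 64 UT and 3621 IMQ barcodes with fewer than 200 genes it stood at 4.01 and 1.53. With Ftl1-ps1 added to Ftl1 the overall difference was -0.49 (-0.60 to -0.38).

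The Mt1 over Mt2 ratio was lower in IMQ in each of the 5 clusters, with fewer UMIs behind it and an interval of the difference that spanned 0 in clusters 3 and 5. In fibroblast-like clusters the ratio was 5.99 in UT and 3.59 in IMQ (-0.74, -1.08 to -0.40), and in cluster 4 it was 4.05 and 2.09 (-0.96, -1.30 to -0.61). The 5 barcodes with at least 70 Mt1 UMIs in each library gave 3.84 in UT and 2.08 in IMQ. The interval of the difference lay below 0 in 3 of the 5 depth bins and spanned 0 in the bins below 500 and from 750 to 1000 UMIs. By its point values Mt2 thus made up a larger part of the pair in IMQ in all 5 depth bins. The same held in every bin of mitochondrial share. There the interval of the difference spanned 0 at 2 to 3% (-0.99 to 0.40), 3 to 4% (-1.49 to 0.07) and above 10% (-2.85 to 0.79).

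**Figure D4:**
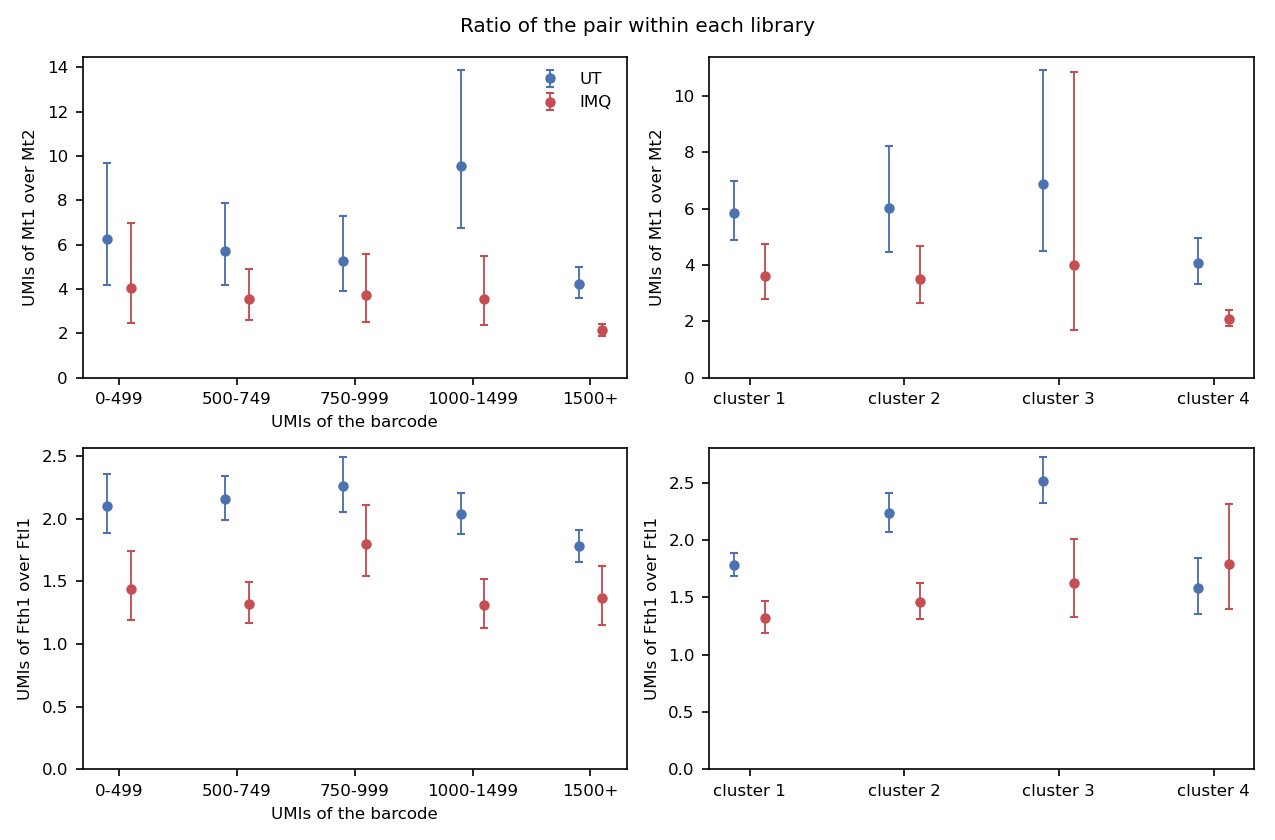
UMIs of Mt1 over Mt2 (top) and of Fth1 over Ftl1 (bottom) in UT (blue) and IMQ (red), by UMIs per barcode (left) and by cluster 1 to 4 (right), with exact 95% intervals. The IMQ point lies below the UT point in every panel position except Fth1 over Ftl1 in cluster 4 (1.58 in UT, 1.79 in IMQ).

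Barcodes were thinned to 400 UMIs each to compare shares and spread at 1 depth, which left out 73 UT and 33 IMQ barcodes. Mt1 was then seen in 34.5% of UT barcodes (31.5 to 37.5) and 37.7% of IMQ barcodes (33.6 to 41.98), against 50.7% and 50.4% before thinning, and these shares did not differ beyond counting error. Mt2 was seen in 8.02% (6.39 to 9.91) and 13.8% (10.96 to 17.0), against 13.9% and 20.3% unthinned, with intervals that were apart. The Mt2 intervals overlapped in fibroblast-like clusters, at 8.33% (6.63 to 10.3) and 11.5% (8.85 to 14.5), and when barcodes were thinned to 200 UMIs (2.67 to 5.07 and 4.16 to 8.22). Fth1 was seen in 89.5% of UT barcodes (87.4 to 91.4) and 75.3% of IMQ barcodes (71.4 to 78.9), and Ftl1 in 78.5% (75.8 to 81.0) and 69.1% (65.1 to 73.0). In fibroblast-like clusters the shares were 35.4% and 34.5% for Mt1, 91.0% and 73.3% for Fth1 and 78.1% and 70.2% for Ftl1. The unthinned shares were 95.5% and 86.5% for Fth1 and 90.4% and 83.4% for Ftl1. Thinned counts, like CPM, are parts of a total, and Gm42418 took 1.38% of kept UMIs in UT and 14.6% in IMQ. These transcripts are widely expressed, so no cell type of the sort could give a background share from free RNA. The mean Mt1 count per thinned barcode, which gives each barcode the same weight, was 0.669 in UT and 0.599 in IMQ. It went the other way from its CPM over all kept UMIs. At 800 UMIs, which left 474 UT and 182 IMQ barcodes, the means were 1.37 and 1.51. With 500 genes per barcode they were 0.752 and 1.59, so the direction depended on the barcodes kept.

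The Fth1 distribution shifted as a whole when counts were taken as shares of each barcode's total. Its median over the single barcodes was 7177 CPM in UT (quartiles 3937 and 12005) and 3822 CPM in IMQ (1768 and 6770), and at 400 UMIs 3.50% of UT barcodes and none of 538 IMQ barcodes, which allows up to 3 counts or 0.558%, carried 11 or more Fth1 UMIs. The highest IMQ count was 10 in that draw and 11 in another draw of the same barcodes, so the count of 0 depends on the draw. In the sums, the Fth1 log2 ratio of -0.73 in CPM was -0.24 with TMM factors and -0.12 relative to the median gene. Ftl1 had medians of 3643 CPM (1943 and 5837) and 2679 CPM (1460 and 4680). Mt2 was at 0 in the median barcode of both libraries.

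The spread of thinned counts was summarised by the Fano factor, the variance over the mean, which is near 1 when cells differ by counting alone. Mt1 had a Fano factor of 4.15 in UT and 2.12 in IMQ, and Mt2 of 1.92 and 2.56. The direction of Mt2 was not stable, with 2.39 and 2.25 in another draw and 2.30 and 2.01 with the 10% mitochondrial limit. The Mt1 factors were 8.25 and 7.51 at 800 UMIs and turned to 4.64 and 6.60 with 500 genes per barcode. Fth1 had 2.75 and 1.80, and Ftl1, the evenest of the 4 by this factor, 1.35 and 1.29. The Fth1 factor was lower in IMQ in all 7 alternatives, and that of Ftl1 turned to 1.24 and 1.59 with 500 genes and to 1.22 and 1.27 at 200 UMIs. The factor depends on the mean, and the mean Fth1 count was 3.60 in UT and 1.82 in IMQ. Measured as standard deviation over mean, the Fth1 spread went the other way, at 0.873 in UT and 0.995 in IMQ. It was higher in IMQ in all 7 alternatives too, so the direction of the Fth1 spread depended on the measure. The median over genes with a mean of at least 0.1 was 1.21 in each library. Mt1 ranked 11 of 516 such genes in UT and 12 of 362 in IMQ, Mt2 26 and 9, Fth1 16 and 24, and Ftl1 135 and 125. Within fibroblast-like clusters the Mt1 factor was 3.28 in UT and 1.37 in IMQ and that of Mt2 1.65 and 1.18. For these 2 genes the IMQ cells of those clusters were thus the more even.

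**Figure D5:**
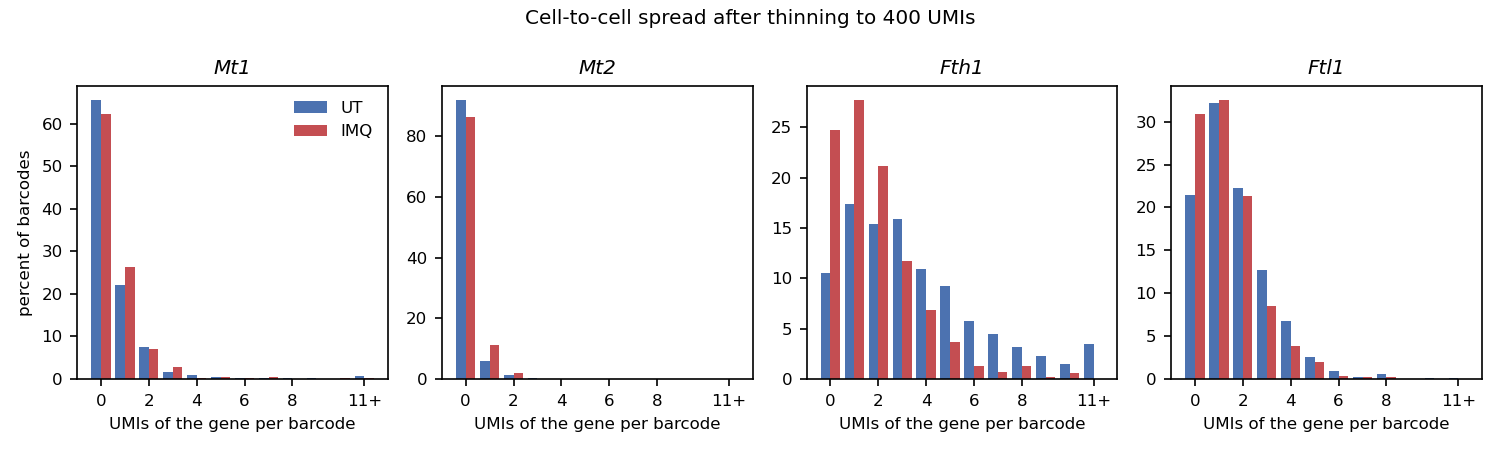
Percent of barcodes (vertical axis) by UMIs of the gene (horizontal axis, 11 or more in the last bin) after thinning to 400 UMIs, for 972 UT (blue) and 538 IMQ (red) barcodes. Fth1 is shifted toward low counts in IMQ, with 10.5% of UT and 24.7% of IMQ barcodes at 0, while Mt1 is at 0 in 65.5% and 62.3%.

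The metallothioneins were found more often in the same barcodes. After thinning, Mt2 was seen in 13.4% of UT barcodes with an Mt1 UMI (9.97 to 17.6) and in 5.18% of those without (3.59 to 7.20). In IMQ the shares were 21.7% (16.2 to 28.0) and 8.96% (6.12 to 12.5). The correlation of log counts of the pair over barcodes was 0.35 in UT (n = 972) and 0.30 in IMQ (n = 538), and within fibroblast-like clusters 0.30 and 0.15. Fth1 and Ftl1, seen in most barcodes, had correlations of 0.19 and 0.12. No metallothionein and ferritin pair had a correlation above 0.05 over all kept barcodes in either library. All of these share the barcode's library and the fixed total of 400 UMIs.

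The genes whose thinned log counts went most with the sum of Fth1 and Ftl1, among 300 genes in at least 10% of barcodes of both libraries, were Tpt1 (r of 0.29 in UT and 0.32 in IMQ), a translationally controlled protein, and the ribosomal protein genes Rps28, Rpl38, Rps12 and Rpl41 (lower r of 0.23 to 0.24). The fibrillar collagen genes Col1a2, Col3a1 and Col1a1 were at the other end, with r of -0.22, -0.20 and -0.19 in UT and -0.34, -0.27 and -0.30 in IMQ. Within fibroblast-like clusters Tpt1 led again (0.28 and 0.30), followed by Rps3a1, Rps12, Rpl30 and Rplp0, and the same 3 collagen genes were lowest. For the sum of Mt1 and Mt2 no gene reached a lower r above 0.11 (Ubb, Lgals3, S100a10, Apoe and Cd47 led, and Gng5 and Eif1 took the last places within fibroblast-like clusters), which in counts this sparse is no finding.

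Other genes of zinc and copper handling were not higher in IMQ as a list. Of 27 listed genes 21 had at least 10 UMIs, of which 0 were at least 2-fold higher and 8 at least 2-fold lower in IMQ, beside 3.73% and 32.0% of all genes, so the count was near the background. The median log2 ratio was -0.77 beside -0.61 for all genes, and in fibroblast-like clusters it lay on the other side, at -0.31 beside -0.62. Slc39a1, a zinc importer of the plasma membrane, had 140 UMIs or 127 CPM in UT and 26 UMIs or 56.4 CPM in IMQ (-1.17, -1.83 to -0.56). Cox17, which carries copper to cytochrome oxidase, had 144 UMIs or 130 CPM and 24 UMIs or 52.1 CPM (-1.32, -2.01 to -0.69). Mt4, the metallothionein of stratified epithelia, had 50 UMIs in UT, all in 2 barcodes, and 0 in IMQ. That is at least 6.95-fold lower against 3 counts over the library, but it rests on those 2 barcodes. Fibroblast-like clusters held 0 Mt4 UMIs in both libraries. Mt3, the brain form, had 0 and 2 UMIs, and Mtf1 had 13 and 4.

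Iron handling genes lay near the background of all genes. Of 31 listed genes 20 were measured, 1 was at least 2-fold higher and 7 at least 2-fold lower, beside 3.73% and 32.0% of all genes, with a median of -0.44 beside -0.61. TMM factors add 0.48 to every ratio of the kept barcodes and so move both medians alike. In fibroblast-like clusters the median was -0.60 beside -0.62. Pcbp1, a chaperone that delivers iron to ferritin, had 137 CPM in UT and 78.1 CPM in IMQ (-0.81, -1.37 to -0.27). Iscu, the scaffold of iron-sulphur clusters, had 157 and 62.9 CPM (-1.32, -1.94 to -0.75), and Slc48a1, a haem transporter, 100.5 and 71.6 CPM (-0.49, -1.10 to 0.08). The 1 higher gene, named after its value was seen, was Aco1, which encodes iron regulatory protein 1, with 7 UMIs in each library and an interval that spanned 0 (1.26). The transferrin receptor gene Tfrc had 2 and 1 UMIs and the exporter gene Slc40a1 0 and 1, too few for a ratio, and mitochondrial ferritin (Ftmt) had none.

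Known inducers of metallothionein genes were followed through 2 lists. Of 12 glucocorticoid response genes 11 were measured, with 0 higher and 2 lower by 2-fold, beside 3.73% and 32.0% of all genes, and a median of 0.33 beside -0.61. Tsc22d3, the glucocorticoid-induced leucine zipper, had 285 CPM in UT and 510 CPM in IMQ (0.84, 0.59 to 1.09), Dusp1, a phosphatase, 158 and 302 CPM (0.93, 0.60 to 1.26), and Cebpd, a transcription factor, 238 and 325 CPM (0.45, 0.15 to 0.75). With the 10% mitochondrial limit Cebpd turned to -0.11 (-0.37 to 0.15) and Dusp1 lay at 0.41, while Tsc22d3 stayed at 0.80. In fibroblast-like clusters their log2 ratios were 1.84, 1.27 and 0.94. The list median there was 0.41 beside -0.62 for all genes. Nfkbia, an inhibitor of NF-kappaB, and Errfi1, an inhibitor of the epidermal growth factor receptor, both named after their values were seen, were lower there, at -1.04 (-1.99 to -0.19) and -1.30 (-2.28 to -0.43). With the 10% mitochondrial limit the list median over all kept barcodes was 0.00 beside -0.64.

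Of 10 genes of the STAT3 and acute phase response 8 were measured, 4 at least 2-fold higher and 1 lower, beside 3.73% and 32.0% of all genes, with a median of 0.71 beside -0.61. Socs3, the feedback inhibitor of that pathway, had 50.7 CPM in UT and 195 CPM in IMQ (1.95, 1.45 to 2.45), Cebpb, a transcription factor, 200.04 and 529 CPM (1.40, 1.14 to 1.67), and Stat3 itself 37.1 and 45.6 CPM (0.30, -0.54 to 1.09). The other 2 higher genes, Osmr and Bcl3, named after their values were seen, had at most 12 UMIs in a library. In fibroblast-like clusters, which held most barcodes, Socs3 had only 11 of its 56 UMIs in UT and 6 of its 90 in IMQ (0.26, -1.46 to 1.82). Cebpb lay at 0.50 (0.07 to 0.92) there, and the list median was -0.35. With the 10% limit over all kept barcodes the list median was 0.22.

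Neither stress list was higher in IMQ by its median over all kept barcodes. Of 20 NRF2 targets 18 were measured, 1 higher (Srxn1, named after its value was seen, with 8 UMIs in each library) and 3 lower by 2-fold, beside 3.73% and 32.0% of all genes. The list median was -0.53 beside -0.61, and -0.61 beside -0.62 in fibroblast-like clusters. Prdx1, a peroxiredoxin, had 508 and 256 CPM (-0.99, -1.29 to -0.70), Gstp1, a glutathione transferase, 341 and 180 CPM (-0.92, -1.28 to -0.58), and Taldo1, of the pentose phosphate pathway, 132 and 62.9 CPM (-1.07, -1.70 to -0.49). Mgst1 and Prdx6, further glutathione-linked enzymes named after their values were seen, were the 2 members with intervals above 0, at 0.30 (0.09 to 0.51) and 0.27 (0.05 to 0.48). Of 14 dissociation stress genes all were measured, 0 higher and 6 lower by 2-fold, beside 3.73% and 32.0% of all genes, with a median of -0.81 beside -0.61. Hspa1a and Hspa1b, inducible heat shock genes, had 412 and 288 UMIs in UT and 33 and 3 in IMQ (-2.38, -2.94 to -1.87, and -5.32, -7.61 to -3.76), and Atf3, a stress transcription factor, had 164 and 11 UMIs (-2.64, -3.67 to -1.76). Junb, a subunit of AP-1, and Hspa8, the constitutive heat shock chaperone, both named after their values were seen, had intervals above 0, at 0.69 (0.46 to 0.91) and 0.55 (0.40 to 0.71). Within fibroblast-like clusters the median of the dissociation stress list was 0.01 beside -0.62 for all genes, so there the list lay above all genes. Of 13 measured genes 1 was at least 2-fold higher and 4 lower, beside 4.43% and 32.2% of all genes there. Of their intervals 2 lay above 0 and 4 below. Hspa1a lay at -1.76 (-3.46 to -0.41) and Atf3, with 35 and 1 UMIs, at -4.00 (-9.34 to -1.43).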

How the data were processed

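Single-cell RNA sequencing libraries (Chromium 3′, version 3) were made from sorted dermal cells, 1 from UT and 1 from IMQ skin. The authors deposited a matrix of raw UMI counts per gene and barcode for each library, with no normalisation. Per the file headers, Cell Ranger 3.0.0 made the UT counts and version 3.1.0 the IMQ counts, and the submitters' processing notes name the mm10 build. The annotation release and the use of strand in counting were not given in the sources used here. The IMQ matrix, unfiltered, holds fewer barcodes than the number of IMQ cells given in the study's methods, so the cells may not be the same.

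Barcodes with 200 to 5000 genes and at most 5% (or 10%) mt- UMIs were kept. UMIs were summed per library and divided by the total of the kept barcodes (CPM). Intervals were exact Poisson, Clopper-Pearson (shares), conditional binomial (ratios) and conditional odds ratio (differences of ratios) intervals from scipy 1.17.1. Genes with at least 10 UMIs over both libraries entered counts past 2-fold and list medians, with 1 CPM added. Doublets were kept in the main values, and an alternative removed the 12 UT and 23 IMQ barcodes with the highest Scrublet scores (scanpy 1.11.5), 0.8% per 1000 deposited barcodes. Clusters came from Seurat 5.3.0 under R 4.3.3 (2000 variable genes, 30 anchor dimensions, 20 components, resolution 0.5, the 4 genes left out), and a cluster was called fibroblast-like or myeloid-like from marker lists. TMM factors came from edgeR 4.0.16. Thinning drew 400 UMIs per barcode without replacement. The steps were tested on simulated data. Named genes were the 4 members, the 3 genes per list with the largest absolute log2 ratio among those with at least 50 UMIs, the 5 genes most like each pair, and relatives of the members. The members and lists were chosen with earlier results of these data known. Promoter sequences are from RefSeq (GRCm38.p6, all 4 genes matched) and gene models from GENCODE M21. Protein sequences were not used here.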

Additional observations from a re-analysis of the deposited data

Results flagged for a closer look

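Among the barcodes of fibroblast-like clusters and those of unnamed cluster 4, 3 genes moved in opposite directions between UT and IMQ, with counting intervals on opposite sides of 0. Mt1 had a log2 ratio of IMQ over UT of -0.19 in fibroblast-like clusters and 2.60 in cluster 4. Fth1 had -0.94 and 0.99, and Ftl1 had -0.39 and 0.80. These are ratios in CPM, and TMM factors turn the fibroblast-like values of Mt1 to 0.27 and of Ftl1 to 0.07 but leave Fth1 at -0.48. Cluster 4 rests on 34 UT and 7 IMQ barcodes. In each library 5 of them held at least 70 Mt1 UMIs, and summed over those 5 Mt1 came to 28726 CPM in UT and 18780 CPM in IMQ. A limit of 70 UMIs demands a higher CPM of a shallower barcode. The 5 in UT were the shallower, with 2028 to 3648 UMIs against 5248 to 10782 in IMQ. These sums therefore cannot be set against the ratio of the cluster. The UT barcodes of the cluster also included 2 with 24879 and 23202 UMIs in all, of which 896 and 871 were from keratinocyte markers and 5 each from Mt1. Their part in the ratio was not tested, and since each group is 1 library the difference was not tested.

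Barcodes with fewer than 200 genes were left out of the comparisons of metallothionein levels over kept barcodes. In IMQ they numbered 3621 and held 280 Mt2 UMIs, or 242 CPM. In UT they numbered 64 and held 0 Mt2 UMIs among 27157, which allows up to 110 CPM. Fth1 in these barcodes had 16534 CPM in UT and 3113 CPM in IMQ.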

How the results depend on the processing

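No paired analysis was possible because each group is 1 library and the shared replicate number pairs nothing. Log2 ratios of IMQ over UT follow for Mt1, Mt2, Fth1 and Ftl1 where they left the counting interval of the main value. With the 10% mitochondrial limit Mt1 was 0.17, Mt2 1.12 and Ftl1 -0.31. With 500 genes they were 2.30, 3.56, -0.39 and -0.0073. In fibroblast-like clusters Mt1 reversed to -0.19, with 0.55, -0.94 and -0.39 for the others, and over all deposited barcodes Mt1 and Mt2 reversed to -0.59 and -0.17, with -1.02 and -0.46 for the ferritins. TMM gave 1.16, 2.20, -0.24 and 0.27 (Ftl1 reversed), median-of-ratios 1.15, 2.19, -0.25 and 0.26 (Ftl1 reversed), and totals that leave out mitochondrial, ribosomal protein, AY036118 and Gm42418 UMIs 0.94, 1.98, -0.47 and 0.047 (Ftl1 reversed). Weighting cells equally gave -0.12 (Mt1 reversed), 0.65, -0.95 and -0.37. Without the top barcode of each library Mt1 was 0.45 and Mt2 1.35. Alternatives added after seeing the data were leaving out cluster 4, with -0.15 (Mt1 reversed), 0.58, -0.91 and -0.35, and equal weight for the fibroblast-like clusters, with -0.18 (Mt1 reversed), 0.57 and -0.84. The difference in log2 Mt1 over Mt2 left its interval in fibroblast-like clusters (-0.74), over all deposited barcodes (-0.43), with cells weighted equally (-0.77), without cluster 4 (-0.74) and with equal cluster weight (-0.75), and that in log2 Fth1 over Ftl1 only with 500 genes (-0.38). Both stayed below 0 in every alternative run. The cause of these changes was not tested beyond what each alternative leaves out.

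Without a minimum of UMIs 1073 genes were 2-fold higher and 4465 lower, in place of 303 and 2604. Of 56 thinned shares under alternatives 24 left their interval, 16 of them at another depth, and 9 of 56 Fano factors moved by over 1.5 times. All 8 fibroblast-like ratios at another resolution or with the 10% limit stayed within their intervals. With 1 library per group no value carries the spread between mice. Mt2 at 400 UMIs was seen in 78 UT and 74 IMQ barcodes.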
